A study of Mus musculus with 5 samples.

Results

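Cell cycle and DNA replication genes were followed across 5 mouse cell cultures, each measured on 1 Affymetrix expression array. The 42 genes were listed by symbol for their known roles, with earlier results of these data known: 13 regulators of G1, 15 genes of DNA replication, 13 genes of mitosis and the checkpoint kinase gene Atm. Of these, 39 were on the array among 8252 genes with a symbol, with 56 of 12488 probe sets. Ccnb1, Cdk6 and Tyms had no probe set of their own there. A filter on dim probe sets, described with its values below, kept 51 of the 56 and 38 of the 39 genes. The replication helicase gene Mcm6 was the one left out, and no member probe set was kept through its level in A20 alone.

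The arrays compared A20, labelled as a memory B cell line, with derivatives of AxJ, labelled as a plasma cell line, plasma cells being the B-lineage cells that secrete antibody. In 2 AxJ clones, D6 and B5, the RNA-binding protein hnRNP-F was overexpressed. Another AxJ line overexpressed its relative hnRNP-H and a further one carried empty vector, and these are the AxJ controls here. All AxJ lines were stable transfectants in G418 medium and A20 was grown without G418, so line and medium cannot be told apart. The submitters picked the overexpressing clones by western blot, and each stands on 1 culture. All cultures were in log phase, per the labels. The labels describe no repeat of a culture, so the p-values reflect how far single arrays of different lines lie apart, which may be technical. The RNA is of whole cultures, in which fewer cells of one phase and less RNA per cell cannot be told apart.

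Cells enter division when cyclin D binds the kinases CDK4 or CDK6 and, with cyclin E and CDK2, releases E2F factors from the retinoblastoma protein. E2F factors switch on genes for the MCM helicase, DNA polymerases and nucleotide synthesis, and DNA is copied in S phase. Cyclin A, cyclin B and CDK1 then drive mitosis, whose genes are switched on later through promoter elements known as CHR and CCAAT. B cells that become plasma cells usually leave the cell cycle, whereas the lines here were kept growing in culture.

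Levels below are quantile-normalised intensities of a gene's brightest probe set. Levels of different genes are not compared, since each probe set has its own response. Log2 differences were taken after adding 6.55 to each intensity, which understates changes of dim probe sets, and only probe sets that exceeded 21.8 on some array were tested. Tests are from limma over all 9107 probe sets kept, with Benjamini-Hochberg adjustment and a threshold of 0.05. A20 is 1 array and took its spread from the AxJ pairs.

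Most B cell and plasma cell markers fitted the labels. Of 12 B cell markers tested 7 rose in A20, but 4 of them (Bcl6, Cd22, H2-Aa and Spib) were kept by the filter through A20 alone, which fixes their direction, and 3 were not. Of 12 plasma cell markers 8 fell, of which 3 (Fkbp11, Ighm and Prdm1) were kept through AxJ lines alone. Over all probe sets tested, 2.9 percent rose and 2.99 percent fell. The B cell markers Blnk (-0.41) and Ciita (-0.17) lay lower in A20 without passing. The plasma cell markers Sdc1, Xbp1, Sec11c and Tnfrsf17 lay lower in A20 but did not pass. No gene of the T cell, myeloid, stromal or erythroid marker lists passed, and the summed level of the 2 T cell markers that could be tested was 42.75 in A20, against 46.6 to 94.7 in the AxJ lines. The Gapdh control probes gave a 5' to 3' signal ratio, which falls with degraded RNA or incomplete labelling, of 0.384 in A20, 0.683 in D6, 0.181 in B5, 0.866 in hnRNP-H and 0.212 in empty vector. Empty vector and B5 thus share a low ratio.

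**Figure D1:**
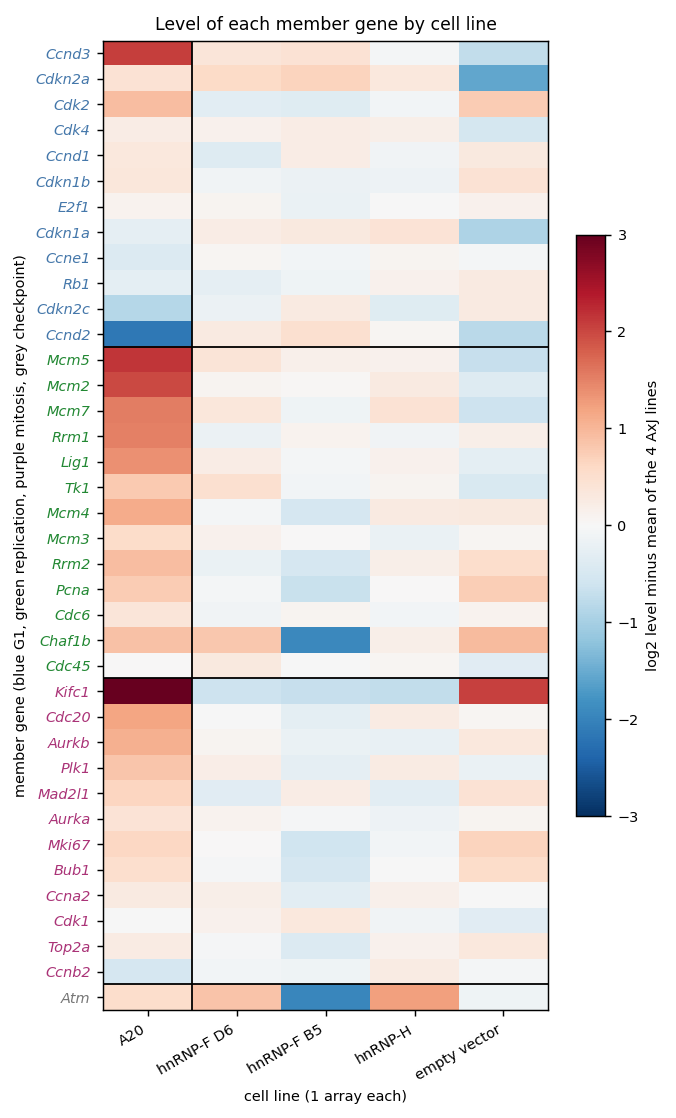
Each row is 1 of the 38 member genes kept and each column 1 array. Colour gives the log2 level minus the mean of the 4 AxJ lines, red for higher and blue for lower, with G1 genes at the top, then replication, mitosis and Atm. In the A20 column the replication rows run from near 0 for Cdc45 to deep red for Mcm5, while Ccnd2 is the bluest row.

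In A20, 5 member genes passed the test against the AxJ controls: 4 of the 13 replication genes, Mcm5, Mcm2, Rrm1 and Lig1, and the G1 cyclin gene Ccnd3. All 5 rose, and none of the 51 member probe sets fell past the threshold. Over all probe sets tested, 2.9 percent rose and 2.99 percent fell by this rule, 5.89 percent in all. At an unadjusted p under 0.05 there were 13 member probe sets of 51, where 19.3 percent of all probe sets had one. Of the 38 genes, 22 lay above all 4 AxJ lines in A20 and 5 below all of them, where 26 percent of all probe sets lay above and 28.9 percent below. The median log2 difference between A20 and the controls was 0.82 for the 13 replication genes, 0.38 for the 12 mitosis genes, 0.12 for the 12 G1 regulators and -0.04 for all probe sets. The G1 median turned to -0.05 with the deposited scaling and to -0.00675 without the hnRNP-H array. With the filter on dim probe sets raised to the 60th percentile of all values, 5 member probe sets were again called, beside 9.67 percent of all probe sets kept.

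The MCM proteins form the ring that unwinds DNA at replication forks. Mcm5 read 3639.6 in A20, against 1080.3 in D6, 922 in B5, 899 in hnRNP-H and 509.9 in empty vector. It was thus far above every AxJ line, and its rise was 2.41 in log2 units (limma SE 0.38, adjusted p = 0.0097). Another, dim Mcm5 probe set differed by 1.09 without passing (adjusted p = 0.38). Mcm2 read 1361 in A20, against 361 in D6, 350.04 in B5, 412 in hnRNP-H and 262 in empty vector, and it rose by 2.03 (SE 0.36, adjusted p = 0.0168). Of the other MCM genes, Mcm7 had the next largest difference. It read 1124 in A20, against 488 in D6, 352 in B5, 521 in hnRNP-H and 249 in empty vector. Its log2 difference of 1.62 (SE 0.46) did not pass (adjusted p = 0.0814), with the 2 controls themselves 1.04 apart, and was 2.15 without the hnRNP-H array (adjusted p = 0.0233) and 1.10 without empty vector (adjusted p = 0.147). Mcm4 read 793 in A20, against 347 in D6, 254 in B5, 442 in hnRNP-H and 451 in empty vector, a difference of 0.82 (SE 0.33, adjusted p = 0.221). Mcm3 differed by 0.62 and, in its other probe set, by 0.46, and lay above all 4 AxJ lines in both. All 5 MCM genes kept were therefore highest in A20, with differences of unequal size.

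Rrm1 and Rrm2 encode the large and small subunits of ribonucleotide reductase, which makes the deoxynucleotides for DNA. Rrm1 read 1693 in A20, against 517 in D6, 629.996 in B5, 543 in hnRNP-H and 665 in empty vector, and rose by 1.48 (SE 0.32, adjusted p = 0.031). The AxJ lines lay close together and A20 stood clear of them. Rrm2 read 817 in A20, against 374 in D6, 299.9 in B5, 481 in hnRNP-H and 614 in empty vector, a difference of 0.58 (SE 0.33) that did not pass (adjusted p = 0.404). Lig1, the ligase that joins Okazaki fragments, read 841 in A20, against 376 in D6, 311 in B5, 354 in hnRNP-H and 264 in empty vector. It rose by 1.44 (SE 0.34, adjusted p = 0.0477), just inside the threshold. Tk1, a kinase of thymidine salvage, read 566 in A20, against 450.4 in D6, 305 in B5, 341 in hnRNP-H and 233 in empty vector, a difference of 0.99 (SE 0.39, adjusted p = 0.204). Its other probe set was dim and lay the other way, at 10.1 in A20, against 69.0 in D6, 9.77 in B5, 47.2 in hnRNP-H and 9.78 in empty vector. In that probe set the AxJ arrays split as the Gapdh ratio does, whose part in it was not tested.

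The remaining replication genes differed less. Pcna, the sliding clamp of DNA polymerases, differed by 0.40, the loading factor Cdc6 by 0.34, the histone chaperone subunit Chaf1b by 0.32 and the helicase cofactor Cdc45 by 0.14, none past the threshold. All 13 replication genes lay above the control mean, where 47.8 percent of all probe sets did, under the quantile, the deposited and the median scaling alike. A20 was above all 4 AxJ lines for 11 of them, Cdc45 and Chaf1b excepted, and at least 2-fold above all 4 for Mcm2, Mcm5, Mcm7, Rrm1 and Lig1, where 5.29 percent of all probe sets lay that far above. The scaling moved the median of all probe sets between -0.14 and 0.07. Relative to that median, the replication genes lay at 0.86 with quantile normalisation, 0.996 with the deposited values and 1.01 with median scaling. With the median over each gene's probe sets in place of the brightest, the replication median was 0.58 in place of 0.82.

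**Figure D2:**
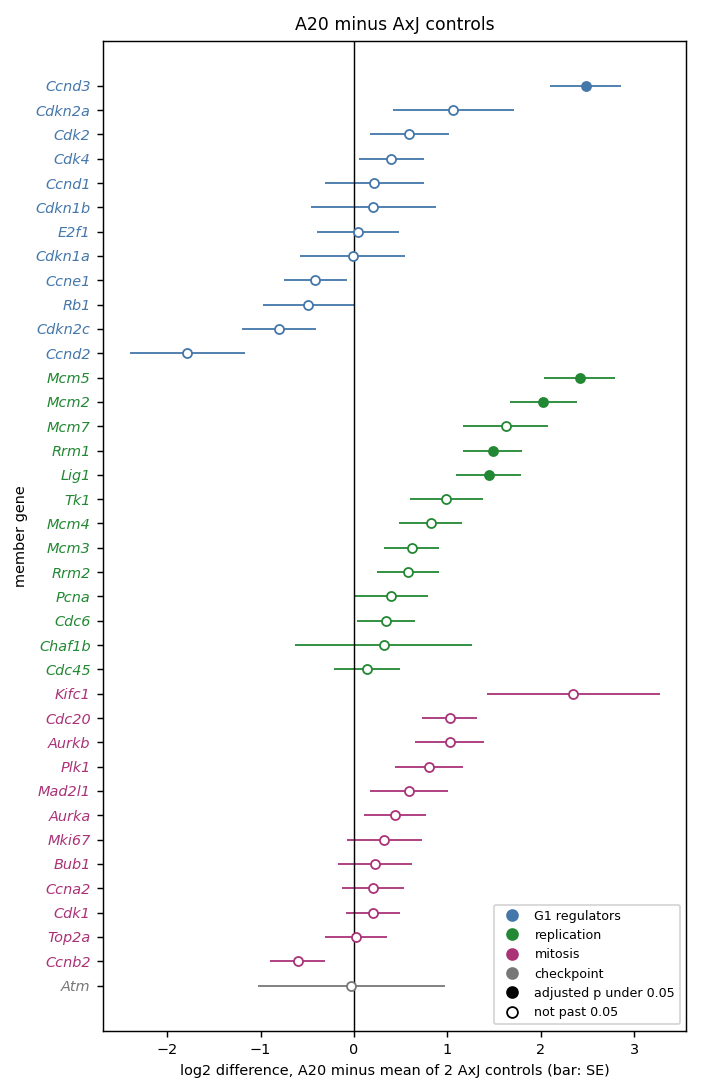
Points give the log2 difference of A20 (1 array) minus the mean of the 2 AxJ controls for each of 38 member genes, with bars of 1 SE from limma. Filled points passed an adjusted p of 0.05, which were Ccnd3, Mcm5, Mcm2, Rrm1 and Lig1, and every green replication point lies right of 0.

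The calls for Rrm1 and Lig1 were the least stable: each was lost under 5 of 13 alternatives, Rrm1 without the hnRNP-H array (adjusted p = 0.0501) and Lig1 without empty vector (adjusted p = 0.0945) among them. Without clone B5 or without clone D6, which leaves less to estimate the spread from, only Ccnd3 and Mcm5 passed (Mcm2 had adjusted p = 0.0574 without B5 and 0.053 without D6, Rrm1 0.0995 and 0.095, Lig1 0.135 and 0.131), and without the intensity trend in the spread none did, although 1.59 percent of all probe sets still passed then.

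Among G1 regulators the cyclin D genes parted between the lines. D-type cyclins are the partners of CDK4 and CDK6, and B-lineage cells mainly use cyclins D2 and D3. Ccnd3 read 1019 in A20, against 304 in D6, 321 in B5, 227 in hnRNP-H and 138 in empty vector, and rose by 2.48 (SE 0.38, adjusted p = 0.00845). Ccnd2 lay the other way, at 3.49 in A20, against 47.1 in D6, 55.8 in B5, 40.3 in hnRNP-H and 19.0 in empty vector. Its log2 difference of -1.78 (SE 0.62) did not pass (adjusted p = 0.150), and the pseudocount sets much of its size, since the A20 level lies under it. Ccnd2 was the 1 member gene at least 2-fold below all 4 AxJ lines, as 4.88 percent of all probe sets were. Ccnd1 was dim everywhere, at 47.5 in A20, against 26.8 in D6, 44.3 in B5, 33.9 in hnRNP-H and 46.7 in empty vector.

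No cyclin-dependent kinase passed. Cdk4 read 1878 in A20, against 1752 in D6, 1865 in B5, 1822 in hnRNP-H and 1111 in empty vector, so that empty vector was the low line and the other 4 lay close together. Its log2 difference was 0.40 (SE 0.35, adjusted p = 0.612), and its dimmer probe set gave -0.47. Cdk2, the partner of cyclins E and A, read 397 in A20 and 354 in empty vector but 162 in D6, 159 in B5 and 192 in hnRNP-H. Its log2 difference was 0.59 (SE 0.42, adjusted p = 0.515), and a dim Cdk2 probe set gave 1.22 (SE 0.82, adjusted p = 0.492). Ccne1 (-0.42), E2f1 (0.04) and Rb1 (-0.49) also did not pass. The brightest E2f1 probe set carries the maker's mark for probes shared within a sequence family. An E2f1 probe set without that mark gave 1.14 and did not pass either. It read 69.7 in A20, against 39.3 in D6, 63.3 in B5, 46.3 in hnRNP-H and 16.0 in empty vector. Another, dim Rb1 probe set gave -0.95.

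CDK inhibitors restrain these kinases. Cdkn2c, an inhibitor of CDK4 and CDK6 with a known part in plasma cell differentiation, was lowest in A20, at 159, against 256 in D6, 349 in B5, 226 in hnRNP-H and 352 in empty vector, a difference of -0.80 (SE 0.40, adjusted p = 0.322). Cdkn2a, which encodes a CDK4 inhibitor and the p53 activator ARF, read 384 in A20, 419.8 in D6, 451 in B5 and 351 in hnRNP-H, against 90.9 in empty vector. Cdkn1a, an inhibitor induced by p53, read 67.5 in A20, 96.9 in D6, 103 in B5 and 112 in hnRNP-H, against 40.7 in empty vector. For both genes the empty vector line was the lowest of the 5, and the difference between A20 and the control mean, 1.06 for Cdkn2a and -0.01 for Cdkn1a, averages over unlike controls. Another, dimmer Cdkn1a probe set read 11.2 in A20 and 10.97 in empty vector, against 36.2 in D6, 64.0 in B5 and 34.2 in hnRNP-H. Its difference between A20 and the control mean was -0.59 and did not pass. Cdkn1b was dim, with a difference of 0.21.

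**Figure D3:**
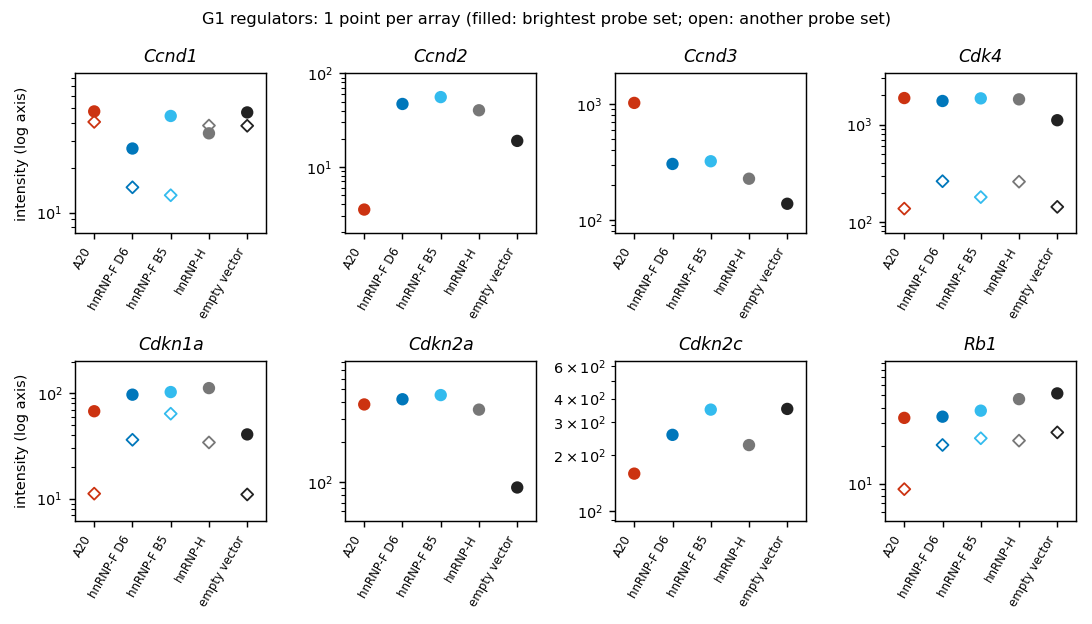
Each panel shows 1 G1 gene with 1 point per array on a log intensity axis, filled for the brightest probe set and open for another one. A20 is highest for Ccnd3 (1019) and lowest for Ccnd2 (3.49), and empty vector is the low point for Cdkn2a (90.9).

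No mitosis gene of 12 passed in A20, where 5.89 percent of all probe sets passed in either direction. Of the 12, 11 lay above the control mean, where 47.8 percent of all probe sets did. Cdc20, the activator of the anaphase-promoting complex, read 2217 in A20, against 963 in D6, 799 in B5, 1157 in hnRNP-H and 1021 in empty vector, so A20 stood above a narrow AxJ range. The difference was 1.02 (SE 0.30, adjusted p = 0.0911), and it passed with all 4 AxJ lines as 1 group (adjusted p = 0.0473). Aurkb, the kinase of the chromosomal passenger complex, read 483 in A20, against 241 in D6, 197 in B5, 194 in hnRNP-H and 282 in empty vector, a difference of 1.02 (SE 0.37, adjusted p = 0.171). Kifc1, a kinesin of spindle assembly, read 429 in A20 and 219 in empty vector but 28.9 in D6, 27.1 in B5 and 25.8 in hnRNP-H. Its difference of 2.35 (SE 0.93) did not pass (adjusted p = 0.207), with the 2 controls far apart: it was 3.75 without empty vector (adjusted p = 0.017) and 0.95 without hnRNP-H (adjusted p = 0.216). Its probe set carries the maker's mark for probes shared within a sequence family, so signal from related sequences cannot be told apart.

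Plk1, a kinase of mitotic entry and exit, differed by 0.80, 1.25 and 1.12 in its 3 probe sets and was highest in A20 in each. Those at 1.25 and 1.12 carry the maker's mark for probes shared within a sequence family. Mad2l1, of the spindle checkpoint, differed by 0.59, Aurka, of spindle assembly, by 0.44, and Mki67, the Ki-67 proliferation marker, by 0.33, though -0.76 in a dimmer Mki67 probe set. Bub1 (0.23), Ccna2 (0.21), Cdk1 (0.20) and Top2a (0.02) were near 0. Cyclin B2 was the exception in direction: Ccnb2 read 1011 in A20, against 1369 in D6, 1325 in B5, 1703 in hnRNP-H and 1389.9 in empty vector, below every AxJ line, with a difference of -0.60 (SE 0.29, adjusted p = 0.311).

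Promoter sequences were set beside these phases, from RefSeq on build GRCm38.p6, as windows of 250 bases before to 50 after a gene's start. Of the 42 genes, 36 had a window, all but Aurkb, Ccna2, Rb1, Ccnd1, Ccnd2 and Mcm4. An E2F word (TTTCCCGC, TTTCGCGC, TTTGCCGC or TTTGGCGC on either strand) was in 6 of 17 windows of replication genes, against 2.26 percent of 32851 windows of 27025 genes, with 1 chromosome left out of the count. Those 6 were of Mcm3, Mcm5, Mcm6, Mcm7, Cdc6 and 1 of 3 for Lig1, while another Mcm7 window held none. An E2F word was in 1 of 11 windows of mitosis genes and in 2 of 14 of G1 regulators. The CHR word (TTTGAA on either strand) was in 8 of 11 mitosis windows, 2 of 17 replication windows and 0 of 14 G1 windows, against 17.9 percent of all. CCAAT on either strand was in 10 of 11 mitosis windows and 10 of 17 replication windows, against 37.4 percent of all. These matches describe letters, not bound sites.

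The windows of the 5 genes that rose in A20 and of Cdc20, the mitosis gene with the largest moderated statistic, are shown with these words in capitals, 5′ to 3′ on the gene's strand. Mcm5 (chr8:75109259-75109558, plus strand) holds overlapping E2F words and several CCAAT words, Lig1 (chr7:13278576-13278875, plus strand, the window of 3 that holds an E2F word) an E2F word, and Rrm1 (chr7:102441445-102441744, plus strand) CCAAT words. Mcm2 (chr6:88898731-88899030, minus strand) and Cdc20 (chr4:118437294-118437593, minus strand) hold CHR and CCAAT words, and Ccnd3 (chr17:47593217-47593516, plus strand, the window of 2 that holds any) a CCAAT word.
Mcm5: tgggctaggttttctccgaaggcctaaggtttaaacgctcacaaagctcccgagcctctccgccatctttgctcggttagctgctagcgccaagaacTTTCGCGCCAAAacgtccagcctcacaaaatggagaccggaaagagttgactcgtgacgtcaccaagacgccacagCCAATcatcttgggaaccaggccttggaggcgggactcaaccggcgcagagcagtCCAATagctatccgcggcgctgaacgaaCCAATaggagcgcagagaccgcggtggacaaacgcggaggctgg
Mcm2: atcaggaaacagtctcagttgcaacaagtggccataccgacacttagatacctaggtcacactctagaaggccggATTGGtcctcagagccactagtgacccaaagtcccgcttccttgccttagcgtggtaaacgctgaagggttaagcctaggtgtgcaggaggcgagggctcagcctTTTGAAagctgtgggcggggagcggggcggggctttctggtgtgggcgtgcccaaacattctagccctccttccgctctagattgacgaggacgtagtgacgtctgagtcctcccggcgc
Rrm1: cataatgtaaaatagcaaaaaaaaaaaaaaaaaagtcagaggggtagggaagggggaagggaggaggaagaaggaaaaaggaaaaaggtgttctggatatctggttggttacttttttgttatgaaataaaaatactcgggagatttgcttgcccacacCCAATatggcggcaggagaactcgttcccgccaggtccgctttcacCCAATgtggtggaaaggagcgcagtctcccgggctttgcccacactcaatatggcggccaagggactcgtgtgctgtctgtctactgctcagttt
Lig1: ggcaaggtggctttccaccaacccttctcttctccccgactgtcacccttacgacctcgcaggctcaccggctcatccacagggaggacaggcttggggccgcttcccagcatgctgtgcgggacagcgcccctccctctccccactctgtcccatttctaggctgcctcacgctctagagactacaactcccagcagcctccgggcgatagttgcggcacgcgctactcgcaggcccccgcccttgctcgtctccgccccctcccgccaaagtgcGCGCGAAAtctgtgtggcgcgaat
Ccnd3: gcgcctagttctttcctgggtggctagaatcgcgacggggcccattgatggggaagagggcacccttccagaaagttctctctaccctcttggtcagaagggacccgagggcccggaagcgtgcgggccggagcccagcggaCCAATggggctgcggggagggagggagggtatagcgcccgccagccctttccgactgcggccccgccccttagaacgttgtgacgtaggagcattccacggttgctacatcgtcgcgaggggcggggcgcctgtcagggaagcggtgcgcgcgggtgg
Cdc20: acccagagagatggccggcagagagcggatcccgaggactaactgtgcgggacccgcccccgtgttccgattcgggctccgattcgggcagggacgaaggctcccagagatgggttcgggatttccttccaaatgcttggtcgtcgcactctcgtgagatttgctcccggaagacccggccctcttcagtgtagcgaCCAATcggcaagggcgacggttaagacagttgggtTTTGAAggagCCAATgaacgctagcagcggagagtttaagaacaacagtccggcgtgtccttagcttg
The E2F words thus stood in 2 of the 4 replication genes that rose, Mcm5 and Lig1, and not in these windows of Mcm2 and Rrm1.

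Other genes of the same pathways came from lists that share no gene with the members. Their counts stand beside the 2.9 percent of all probe sets that rose and the 2.99 percent that fell. Of 39 further replication genes tested, 4 rose in A20 and 1 fell, with a median of 0.44. Pold1, the catalytic subunit of the lagging-strand polymerase delta, read 1377 in A20, against 308 in D6, 234 in B5, 224 in hnRNP-H and 183 in empty vector, and rose by 2.73 (SE 0.35, adjusted p = 0.00369), though a dim Pold1 probe set gave -0.27. Its partner Pold2 rose by 1.98 (SE 0.31, adjusted p = 0.00912) and the primase-associated polymerase Pola1 by 1.99 (SE 0.38, adjusted p = 0.0218). The fourth to rise was Rpa1, of the single-strand binding complex, by 2.41. Gmnn, the geminin gene, whose product blocks re-licensing of replication origins, fell by 1.66 (SE 0.33, adjusted p = 0.026), at 273 in A20, against 687 in D6, 557 in B5, 754 in hnRNP-H and 1013 in empty vector.

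Of 36 further mitosis genes, 5 rose and none fell, with a median of 0.18, beside the same shares of all probe sets. Lmnb1, which encodes lamin B1 of the nuclear envelope, rose by 3.02 (SE 0.47, adjusted p = 0.009), the cyclin F gene Ccnf by 1.83 (SE 0.37, adjusted p = 0.0254) and the kinesin Kif2c by 1.78 (SE 0.36, adjusted p = 0.0265). Of 23 further G1 genes, 2 rose and 4 fell, with a median of 0.17. Myb, a proliferation factor of immature blood cells, rose by 2.82 (SE 0.45, adjusted p = 0.011). The stress gene Gadd45a read 157 in A20, against AxJ levels all under 21.8, so it was kept through A20 alone and could not have fallen. The inhibitor Cdkn2b read 33.5 in A20, against 227 in D6, 291 in B5, 199 in hnRNP-H and 302 in empty vector, and fell by 2.65 (SE 0.40, adjusted p = 0.00811). The growth regulator Myc fell by 3.01 (SE 0.29, adjusted p = 0.00105), and Cks1b, a small subunit of CDK complexes, fell by 1.37 (SE 0.27, adjusted p = 0.0241). The fourth to fall was the retinoblastoma relative Rbl1. Of 21 further checkpoint and repair genes, the recombination gene Brca2 rose by 1.99 (SE 0.39, adjusted p = 0.0233) and the checkpoint clamp gene Rad1 fell by 2.04 (SE 0.33, adjusted p = 0.011). The median of these 21 genes was 0.44, as for the further replication genes.

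The hnRNP-F clones were set against the 2 AxJ controls to ask whether hnRNP-F overexpression went with a change in these genes. Since 1 control overexpressed the relative hnRNP-H, a change common to hnRNP-F and hnRNP-H would be partly averaged out here. None of the 51 member probe sets passed (limma, adjusted p of at least 0.79), as 0.011 percent of all probe sets did. At an unadjusted p under 0.05 there were 4, for Ccnd3, Rrm2, Cdkn2a and a dimmer Ccnd1 probe set, where 5.79 percent of all probe sets had one. That Ccnd1 probe set read 14.8 in D6 and 13.1 in B5, against 38.2 with hnRNP-H and 38.1 with empty vector. Its log2 difference was -1.13. The median log2 difference was -0.09 over the 38 genes and 0.01 over all probe sets. Both clones lay above both controls for 5 genes and below both for 9, where 18.2 and 19.4 percent of all probe sets did. The A20 comparison used the same 2 control arrays.

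The 8 genes with the largest moderated statistics by their brightest probe sets are given by array. Ccnd3 read 304 in clone D6 and 321 in clone B5, against 227 with hnRNP-H and 138 with empty vector, a difference of 0.79 (SE 0.31). Cdkn2a read 419.8 in clone D6 and 451 in clone B5, against 351 with hnRNP-H and 90.9 with empty vector, a difference of 1.24 (SE 0.53). In both genes the clones lay above both controls, but most of the distance was to empty vector: without that array the difference was 0.45 for Ccnd3 and 0.31 for Cdkn2a. Cdk1, the mitotic kinase, read 1589 in clone D6 and 1817 in clone B5, against 1342 with hnRNP-H and 1157 with empty vector, a difference of 0.45 (SE 0.24).

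The other 5 lay lower in the clones. Rrm2 read 374 in clone D6 and 299.9 in clone B5, against 481 with hnRNP-H and 614 with empty vector, a difference of -0.69 (SE 0.27). Pcna read 1265 in clone D6 and 825 in clone B5, against 1329 with hnRNP-H and 2190.1 with empty vector, a difference of -0.74 (SE 0.32). In both genes B5 was the lowest line and empty vector the highest. Mcm4 read 347 in clone D6 and 254 in clone B5, against 442 with hnRNP-H and 451 with empty vector, a difference of -0.58 (SE 0.27). Cdk2 read 162 in clone D6 and 159 in clone B5, against 192 with hnRNP-H and 354 with empty vector, a difference of -0.68 (SE 0.34). Mki67 read 801 in clone D6 and 525 in clone B5, against 761 with hnRNP-H and 1278 with empty vector, so that the clones overlapped the controls, with a difference of -0.60 (SE 0.33) and 0.25 in its dimmer probe set. Without empty vector the difference was -0.38 for Pcna, -0.25 for Cdk2 and -0.23 for Mki67. Without B5 it was -0.43 for Pcna, -0.36 for Mcm4 and -0.30 for Mki67. For all 8 genes the adjusted p was 0.79 with every array in.

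Of the 12 mitosis genes 10 lay below the control mean in the clones, with a median of -0.16, and Cdk1 and Aurka above it, as 50.5 percent of all probe sets did. The shift lay mostly in B5. For clone D6 the median of the mitosis genes was 0.00996 against hnRNP-H and -0.15 against empty vector, and for clone B5 it was -0.41 and -0.33. Of the 36 further mitosis genes, both clones lay below both controls for 15 and above both for 2, where 19.4 and 18.2 percent of all probe sets did, and none passed. By this count the other lists leaned the same way. Of the G1 genes 10 of 23 lay below and 2 above, and of the replication genes 14 of 39 below and 7 above. Of the checkpoint and repair genes 8 of 21 lay below and 2 above. The median difference was 0.00337 for these G1 genes, -0.04 for replication and -0.13 for checkpoint and repair. It was -0.21 for the further mitosis genes and 0.01 for all probe sets. Of the 12 member G1 regulators, 3 lay above both controls and 2 below. Among the further mitosis genes, those with the largest moderated statistic were the condensin genes Smc2 at -0.96 (SE 0.29) and Smc4 at -0.81 (SE 0.27), whose products compact chromosomes, the cytokinesis gene Anln at -0.95 (SE 0.34) and the cohesin gene Smc3 at -0.93 (SE 0.34), all with an adjusted p of 0.79.

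**Figure D4:**
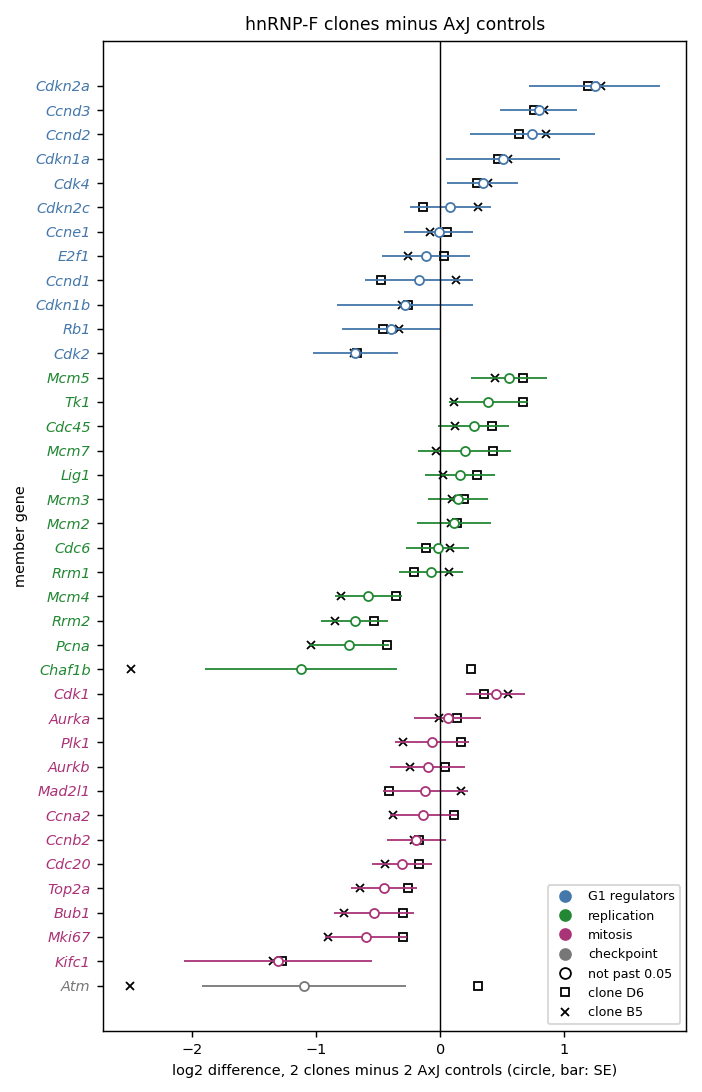
Circles give the log2 difference of the 2 hnRNP-F clones minus the 2 AxJ controls with bars of 1 SE from limma, and squares and crosses give clones D6 and B5 alone against the control mean. No gene passed, the crosses of B5 lie left of the squares of D6 for most replication and mitosis genes, and Chaf1b and Atm part most between the clones.

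Between the 2 hnRNP-F clones, with 1 array each and no test, D6 was above B5 for 11 of 13 replication genes (median 0.29) and 10 of 12 mitosis genes (median 0.27), but for 4 of 12 G1 regulators (median -0.08), beside a median of 0.00333 for all probe sets. Of all 9107 probe sets tested, 4577 lay higher in D6 than in B5. Chaf1b read 94.6 in D6 and 8.65 in B5, with 58.8 in hnRNP-H and 104 in empty vector, so that B5 alone was near background. Atm, the kinase of the DNA double-strand break checkpoint, read 174 in D6 and 19.2 in B5. These were the 2 genes at least 2-fold apart by their brightest probe sets, and over all member probe sets 4 were higher and 1 was lower in D6 by that margin, where 6.23 and 5.74 percent of all probe sets were. B5 was the lowest of the 4 AxJ lines for 16 of 38 genes and the highest for 5, against 26 and 27.1 percent of all probe sets. The low Gapdh ratio of B5 stands beside this shift, and its part was not tested.

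In hnRNP-H against empty vector, also 1 array each, 7 member probe sets were higher and 3 were lower by 2-fold or more, where 9.97 and 8.16 percent of all probe sets were. By brightest probe set the higher genes were Cdkn2a (log2 difference 1.87), Atm (1.37), Cdkn1a (1.33) and Mcm7 (1.04), and the lower one was Kifc1 (-2.80). The other Cdkn1a probe set also lay higher, at 34.2 in hnRNP-H and 10.97 in empty vector. Dimmer probe sets of Tk1 (1.72) and E2f1 (1.23) lay higher too, and those of Plk1 (-1.59) and Bub1 (-1.18) lower. The brightest probe sets gave 0.54 for Tk1, -0.15 for E2f1, 0.44 for Plk1 and -0.57 for Bub1. A further Plk1 probe set gave 0.36. Atm read 228 in hnRNP-H and 83.9 in empty vector, and with D6 at 174 and B5 at 19.2 its AxJ arrays parted as the Gapdh ratio did. Empty vector was the line at the end of the AxJ range most often, the highest for 18 and the lowest for 12 of 38 genes, against 33.4 and 31.9 percent of all probe sets. The highs included Kifc1, Pcna, Mki67, Cdk2 and Bub1, and the lows Cdkn2a, Cdkn1a, Ccnd2, Ccnd3, Cdk4, Mcm2, Mcm5 and Mcm7. Since empty vector is 1 of the 2 AxJ controls, it enters both tested comparisons.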

How the data were processed

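Polyadenylated RNA of 5 cultures was labelled with biotin for Affymetrix arrays, per the labels' protocols. The authors' deposited values are linear intensity values, 1 for each probe set on an array, and the values themselves show a trimmed mean of about 150 on every array. The software and the background step are not stated there, and no detection calls were used. The number of arrays limits the precision. Symbols came from the platform annotation, brought up to date by gene identifier. Of 12488 probe sets 10855 had 1 symbol, and no gene was named from the 396 with several.

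Control probe sets of the maker, 66 in all, were removed first. The A20 median deviated by -11.55 percent from the mean of all medians, past a tolerance of 10 percent, so arrays were quantile normalised. The pseudocount of 6.55 and the minimum of 21.8 are the 20th and 40th percentiles of all values. A limma 3.58.1 model (R 4.3.3, intensity trend, two-sided) was fitted over all 5 arrays with coefficients for hnRNP-F, AxJ controls and A20, with 2 residual degrees of freedom and a prior of 6.46. The procedure, without the quantile normalisation, was run on simulated data with noise drawn from the model's own spread. That run could not check whether A20 has the spread of the AxJ pairs. A gene with several probe sets was led by that of highest mean log2 level. Arrays were given by line for every member past the threshold, for the 12 (A20) and 8 (hnRNP-F) genes with the largest moderated statistic and for others where lines parted. From each further list, up to 3 genes past the threshold in each direction were named by that statistic. Comparisons of 1 array with 1 have no test and used a 2-fold difference. Members and lists were chosen with earlier results of these data known. The genes named for the mitosis list in the hnRNP-F comparison were chosen after their values were seen.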

Additional observations from a re-analysis of the deposited data

How the results depend on the processing

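With 5 member probe sets called in A20 as reported, 3 were called without the filter on low values (Rrm1 and Lig1 lost), 0 without the intensity trend, and 2 to 6 with each AxJ array left out in turn. The lowest counts were those without B5 and without D6. With A20 against hnRNP-H and D6 alone, the arrays of higher Gapdh ratio, a comparison chosen after seeing the data, 19 were called beside 18.8 percent of all probe sets. The median log2 difference of the member genes in A20 was 0.40 as reported, 0.59 under median scaling, and 0.33 to 0.57 with each AxJ array left out. In the hnRNP-F comparison no alternative called a member, and the median ran from -0.15 without the hnRNP-H array to 0.0478 without B5, where its sign turned. With a pseudocount 4 times as large, member probe sets at least 2-fold apart numbered 6 in place of 10 for hnRNP-H against empty vector and 3 in place of 5 for D6 against B5. The 12 genes of the A20 comparison and the 8 of the hnRNP-F comparison given by array kept their direction under all alternatives run. No paired analysis was possible because the labels give no replicate numbers.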
